A study of Mus musculus with 10 samples.

Results

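Elk1 chromatin binding at day 4 of neural reprogramming was compared with day 0 over 1577 loci, which is every locus in the deposited table. Elk1 was immunoprecipitated from mouse fibroblasts that the labels call tdMEFs, and the recovered DNA was sequenced. The day 0 library (Elk1 D0) is labelled as tdMEFs at day 0 of reprogramming, and these cells are grown in a serum-containing MEF medium at 20% oxygen. The day 4 library (Elk1 D4) comes from the same kind of cells 4 days into M9, a neural medium kept at 5% oxygen. M9 holds N2 and B27 supplements, bFGF, CHIR99021, LDN193189, A83-01, Hh-Ag1.5, retinoic acid, SMER28, RG108 and Parnate. Medium, serum, oxygen and time differ together between the days, so their parts in any difference cannot be told apart. The series has 10 libraries, 1 for each of 2 antibodies (Elk1 and Gli2) at 5 stages, which are days 0, 4 and 8 and cells that the labels name ciNSLCs and pri-NPC without describing them further. Since each side is 1 library, no difference is checked by replicates and p-values are left out. The table holds binding and not expression, so the labelled cell type was not checked against marker expression.

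Elk1 is a transcription factor of the ETS family. It is phosphorylated by MAP kinases after growth factor stimulation, and with the serum response factor SRF it forms the ternary complex that switches on immediate-early genes such as Fos and Egr1. ETS proteins bind DNA around a GGAA core, while SRF binds the CArG box. Both serum, present in the MEF medium, and bFGF, present in M9, are known activators of the MAP kinase pathway.

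At 2 gene starts the Elk1 signal was higher at day 4 beyond counting error and the promoter sequence holds the ETS letters CCGGAA. Both loci were listed through day 4 alone, which favours a gain. The 250 bases upstream of each start site are shown 5′ to 3′ because these promoters are where the gain and the ETS letters coincide, with CCGGAA in capitals. The sequences are from RefSeq (GRCm38.p6, the build also called mm10). The Map3k14 promoter lies at chr11:103267402-103267651 on the minus strand, and 207 of its bases are under the Elk1 locus. The Sox2 promoter lies at chr3:34649745-34649994 on the plus strand, and all 250 bases are under the locus.
Map3k14: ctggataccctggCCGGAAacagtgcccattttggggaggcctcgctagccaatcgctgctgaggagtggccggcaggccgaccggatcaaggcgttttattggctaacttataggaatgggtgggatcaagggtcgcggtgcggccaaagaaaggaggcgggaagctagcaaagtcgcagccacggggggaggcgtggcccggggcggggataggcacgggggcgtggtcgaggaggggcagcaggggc
Sox2: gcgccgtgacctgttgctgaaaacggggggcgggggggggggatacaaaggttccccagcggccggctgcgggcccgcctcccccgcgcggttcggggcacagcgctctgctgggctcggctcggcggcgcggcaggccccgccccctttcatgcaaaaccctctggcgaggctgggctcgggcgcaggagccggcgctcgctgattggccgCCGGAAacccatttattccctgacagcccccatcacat
The capital letters begin 237 bases before the start site of Map3k14 and 38 bases before that of Sox2. The letters alone are common: CCGGAA, searched on both strands and chosen after the values were seen, is in 14.9% of all 32851 promoter windows of 250 bases before to 50 after a start. It is in 13 of the 53 windows under a locus (24.5%), in 5 of the 27 windows under a locus at least 2-fold higher at day 4 (18.5%) and in 2 of the 3 under a locus higher beyond counting. The longer ETS letters CCGGAAG are in 8.86% of all windows and in 5 of the 53 (9.43%), and CGGAAG, whose letters overlap both others, in 16.9% and in 12 (22.6%). Of the 27 windows under a locus at least 2-fold higher, CCGGAAG is in 2 (7.41%) and CGGAAG in 6 (22.2%). Neither is in any of the 3 windows under a locus higher beyond counting. The CArG box is in 1.63% of all windows and in 1 of the 53 (1.89%). The GLI letters TGGGTGGTC are in 0.253% of all windows and in none of the 53. A match describes the letters in this window and is not a binding site.

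Values are the authors' signal per locus, which is never negative, and differences are of log2(signal + 1), a scale that understates changes at low signal. Each locus is in the table for having reached about 100 in some library. Most low signals of each library lie on a grid, and the spacing of that grid is taken as 1 counted unit. A unit is worth 3.44 in Elk1 D0 and 9.69 in Elk1 D4, so a signal of 100 is 29.1 units in the former and 10.3 in the latter. Loci were called higher or lower at day 4 past 2-fold. They were called higher or lower beyond counting where, in addition, the 95% interval of the ratio computed from the counted units left out 1. These intervals cover counting error only, since amplified reads without molecular identifiers are not independent molecules. They also take the deposited scale of the 2 libraries as given. Because a unit is worth more signal at day 4, falls from a low day 0 signal are called less readily than rises.

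Gains outnumbered losses in the table of 1577 loci: the day 4 signal was past 2-fold above that of day 0 at 681 (43.2%) and past 2-fold below it at 351 (22.3%). Most of these differences rest on few counts: 278 loci (17.6%) were higher beyond counting, and 6 (0.38%) were lower beyond counting. The median signal was 10.3 at day 0 and 14.8 at day 4, which is 3 units and 2 units, and the median difference was 0.65 on the log2 scale. At day 0, 171 loci were listed at 0, and at day 4 the number was 238. In units alone, without the scale of the libraries, 453 loci had more at day 4, 195 had as many and 929 had fewer. The direction of the many small differences therefore depends on the deposited scale. Of the 278 loci higher beyond counting, 263 had more units at day 4, 7 as many and 8 fewer.

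A locus listed only because day 4 reached 100 is high at day 4 by selection, so the counts were repeated over the 1384 loci that reached 100 in at least 1 of the other 8 libraries. There, 500 loci (36.1%) were higher and 349 (25.2%) lower past 2-fold, with a median difference of 0.40. Higher beyond counting were 105 (7.59%), and lower beyond counting were 5 (0.361%). Of those 105 loci, 98 had more units at day 4. Gains beyond counting also outnumbered losses among these loci, but the interval does not treat the 2 directions alike. A rise from 0 to 30.8 (3 units) inside Nbea was called, while a fall from 27.5 (8 units) to 0 inside Caprin2 was not. The numbers beyond counting therefore do not measure gains against losses. Counts past 2-fold and beyond counting all take the deposited scale, and scaling the libraries to the same median over all loci turned the restricted median to -0.03.

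**Figure D1:**
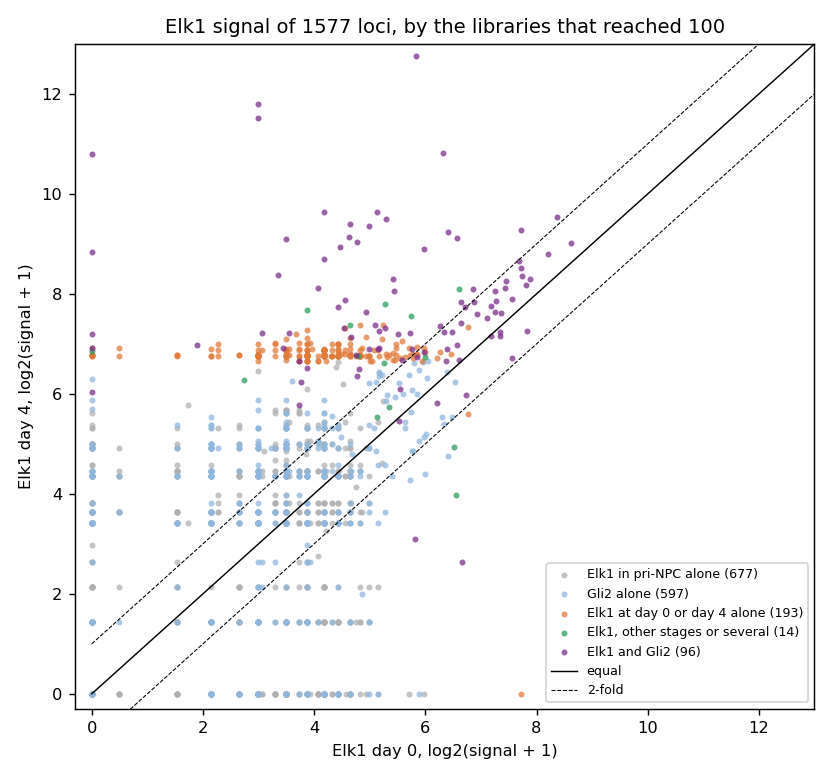
Elk1 signal of each of the 1577 loci at day 0 (horizontal axis) and day 4 (vertical axis), both as log2(signal + 1), coloured by the libraries in which the locus reached 100; the solid line marks equal signal and the dashed lines 2-fold. Of the 193 loci listed through day 0 or day 4 alone, the 190 listed through day 4 alone lie at or above 100 at day 4 by their listing, while loci reached with both antibodies spread far above the diagonal, up to 6966.8 at day 4.

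The loci that gained signal differed by the library that put them in the table. At the 190 loci that reached 100 in Elk1 D4 alone, the median Elk1 signal went from 17.2 on day 0 to 108.3 on day 4, while the ciNSLCs had 11.3, pri-NPC 14.5 and day 8 had 14.8. Past 2-fold were 181 of them and beyond counting 173, which their listing favours, and their median later levels lay at or under that of day 0. At the 677 loci listed through Elk1 in pri-NPC alone, 222 were higher and 193 lower, 24 were higher beyond counting (3.55%), and the median signals were 10.3 and 11.4. At the 357 loci listed through Gli2 at day 0 alone, 101 were higher and 105 lower, and 10 were higher beyond counting (2.80%). Both large classes had shares beyond counting under the 7.59% of the 1384 loci. Listing through a single other library keeps their day 4 signal under 100, which works against a gain. Their low shares therefore partly follow from the listing.

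The loci reached with both antibodies stood apart. Of these 96 loci, 58 were higher and 2 lower, 55 were higher beyond counting (57.3%), and the Elk1 medians were 52.65 (day 0) and 187.3 (day 4). Since the class counts day 4 itself among the Elk1 libraries, the 70 loci that reached 100 with Gli2 and with Elk1 at day 8, in ciNSLCs or in pri-NPC were counted alone: 41 were higher, 1 lower and 40 higher beyond counting, with a median difference of 2.27. Of the 105 loci higher beyond counting and listed elsewhere, 55 (52.4%) were of both antibodies, although this class makes up 96 of the 1384. Of these 55, 15 are in the class only because Elk1 reached 100 at day 0 or day 4, so this share partly follows from the listing. The Gli2 medians of the 96 loci were 238.4 on day 0 and 139.7 on day 4.

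The steepest gains were in crowded stretches and lone loci of this kind. In the stretch at chr9:2999865-3038365, 19 loci lie farther than 50 kb from a protein-coding gene, and all 19 were higher at day 4, 18 of them beyond counting. Over all loci the shares were 43.2% and 17.6%. These neighbouring loci were also high with Gli2 at day 0 (median 254.1) and are not separate cases. Their Elk1 signals ran from 0 to 38.2 at day 0 (median 20.6) and from 72.5 to 1777 at day 4 (median 213.9). The 2 ranges do not overlap, in a stretch picked for its gain. The locus at 3025325 was listed at 0 on day 0, and its signal was 1777 on day 4, 1667.5 in pri-NPC, 478.6 on day 8 and 203.7 in the ciNSLCs. Between 98662085 and 98667465 of chromosome 2, at least 1030413 bp from the nearest protein-coding gene, 4 loci had Elk1 signals of 6.9, 17.2, 34 and 55.7 at day 0 and of 2928.8, 790.7, 799 and 6966.8 at day 4. The last of these is the highest Elk1 signal at day 4 in the table.

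Single loci with the same profile lay beside or in named genes. A locus 29108 bp from Rpusd4, a mitochondrial RNA pseudouridine synthase gene on chromosome 9, had 6.9 at day 0 and 3574 at day 4. One inside Cdk5rap2, which encodes a centrosomal protein, had 17.2 and 414.2, and one inside Chl1, a neural cell adhesion gene, was listed at 0 at day 0 and had 458.7 at day 4. One at chr14:19415585-19419805, far from any protein-coding gene, had 78.6 and 1802.1. Gli2 signals at day 0 were already high at these loci, at 3382.2 for Rpusd4, 303 for Cdk5rap2, 480.8 for Chl1 and 1722.1 on chromosome 14. Elk1 in pri-NPC was high as well, at 3571.7, 370, 749.7 and 1643.6 in the same order. High signal at these loci is thus not particular to Elk1 or to day 4. No repeat annotation was used for these loci or for the stretches.

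Over all 96 loci of both antibodies, Elk1 D0 had the lowest signal of the 10 libraries at 21 and Gli2 ciNSLCs at 22, while Gli2 D8 and Elk1 pri-NPC were lowest at 12 each. At the 38 of these loci at least 5-fold higher at day 4, Elk1 D0 was the lowest at 21 and Gli2 D8 at 8, a choice of loci that favours a low day 0. In the chromosome 9 stretch Elk1 D0 was the lowest at 12 of the 19 loci and Gli2 D8 at 3, and on chromosome 2 Elk1 D0 was the lowest at 3 of the 4, but these stretches are described because day 4 exceeded day 0 there, which favours a low day 0. Over all 1577 loci Elk1 D0 was the lowest at 128, close to the 125 of the D8 library and the 126 of the ciNSLCs one. With 1 library a group, a difference between the cells and a difference between the libraries cannot be told apart here.

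**Figure D2:**
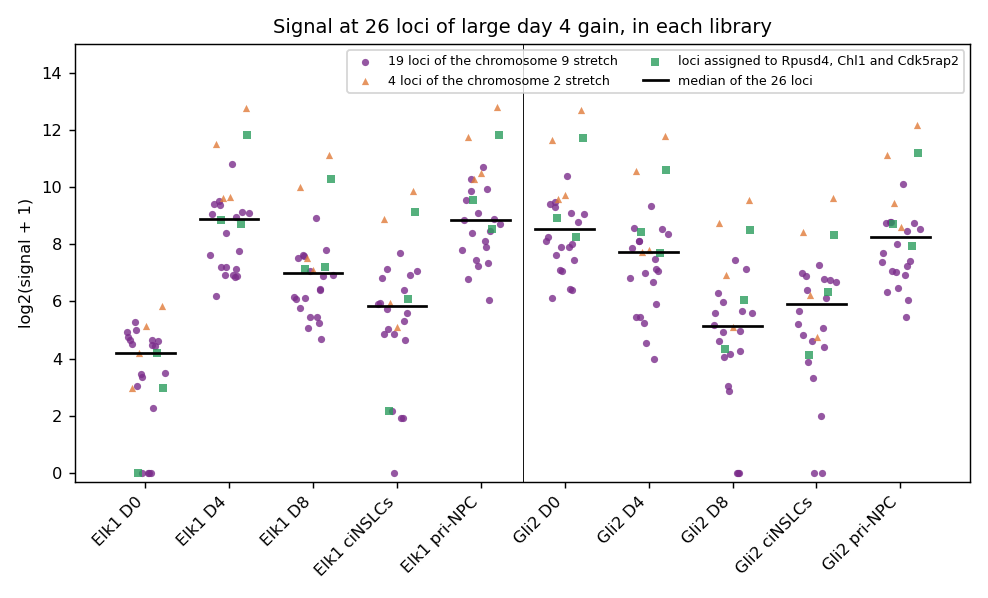
Signal as log2(signal + 1) in each of the 10 libraries at the 19 loci of the chromosome 9 stretch, the 4 loci of chromosome 2 and the loci assigned to Rpusd4, Chl1 and Cdk5rap2; bars mark the median of the 26 loci. The Elk1 day 0 points reach no signal above 55.7, and points of other libraries lie as low, down to 0 for Elk1 and Gli2 in ciNSLCs and for Gli2 at day 8, while Elk1 at day 4 and in pri-NPC and Gli2 at day 0 reach between 6670.2 and 7140 on chromosome 2.

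Not all crowded loci showed such gains. The 21 loci in and beside Sfi1, a centriole protein gene (chr11:3126945-3200085), were already high at day 0, with a median of 162.6 and a range of 45 to 392.4, and had a median of 232.2 at day 4, with none past 2-fold. Beside C130026I21Rik and A530032D15Rik on chromosome 1 (84994245 to 85333005), 25 loci had medians of 36.6 and 100.3, and 11 were higher, 8 of them beyond counting. At the Ugt1a1, Mroh2a and Trpm8 stretch (88213285 to 88307305) 31 loci had medians of 53.8 and 100.3, with 12 higher, 3 beyond counting, and 3 lower. Crowded stretches are at least 5 loci within 100 kb, and those with tRNA genes (10 of 22) are left out of the next counts of crowded loci. Over the 109 loci of the other 12 stretches that were not of both antibodies, 43 were higher and 16 lower. Without these 12 stretches and the loci of both antibodies, 202 of the 278 loci higher beyond counting remain, and 44 of the 105 listed elsewhere.

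By position, the 7 classes outside the mitochondrial chromosome had similar medians, all above 0. A locus within 1 kb of a tRNA gene or another small RNA gene was put in those classes even where it also lay at a start site. The other 33 loci within 1 kb of a start site had a median difference of 0.65, with 13 higher and 11 lower. The 425 other loci inside protein-coding genes had 0.65, with 177 higher and 91 lower. The 86 loci within 5 kb of a gene had 0.59, the 177 at 5 to 50 kb had 0.86 and the 606 farther away had 0.48. Higher beyond counting were 4 of the 33 (12.1%), 86 of the 425 (20.2%), 19 of the 86 (22.1%), 49 of the 177 (27.7%) and 111 of the 606 (18.3%), read against 17.6% of all loci. Among loci listed elsewhere the counts were 0 of 29, 24 of 352, 3 of 68, 18 of 142 and 51 of 544, read against 7.59%. Gains in this start-site class were few: the 4 beyond counting belong to Map3k14, Sox2, Sp110 and Olfr985, and each was listed through day 4 alone. Start sites beside tRNA genes, classed apart, also held gains beyond counting at loci reached in another library. A locus over the BB557941 promoter (chromosome 2, 57181905) had 0 at day 0 and 29.1 at day 4. One near Btn1a1 (chromosome 13, 23446605), 634 bp from a start site, had 0 and 30.8. Both rest on few units: the Btn1a1 rise is from 0 to 3, with an interval from 1.17 up, and the BB557941 rise is no larger.

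The 208 loci within 1 kb of a nuclear tRNA gene had a median difference of 1.16, with 105 higher and 37 lower, but 8 higher beyond counting (3.85%). All 208 had reached 100 in another library, and over all such loci the share beyond counting was 7.59%. Their median Elk1 signals of 6.9 and 9.7 are 2 units and 1 unit, and in units alone 65 of these loci had more at day 4, 42 as many and 101 fewer. Gli2 was high at these loci, with a median of 269.9 at day 0 and 60.2 at day 4. Another 41 loci beside other small RNA genes had a median of 0.81 and 1 higher beyond counting. The 187 loci within 1 kb of a long noncoding RNA gene, a class that overlaps the others, had a median of 0.81, with 34 higher beyond counting (18.2%). That share is near the 17.6% of all loci. Of the 164 reached in another library, 11 were higher beyond counting (6.71%), also near the 7.59% of all such loci.

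**Figure D3:**
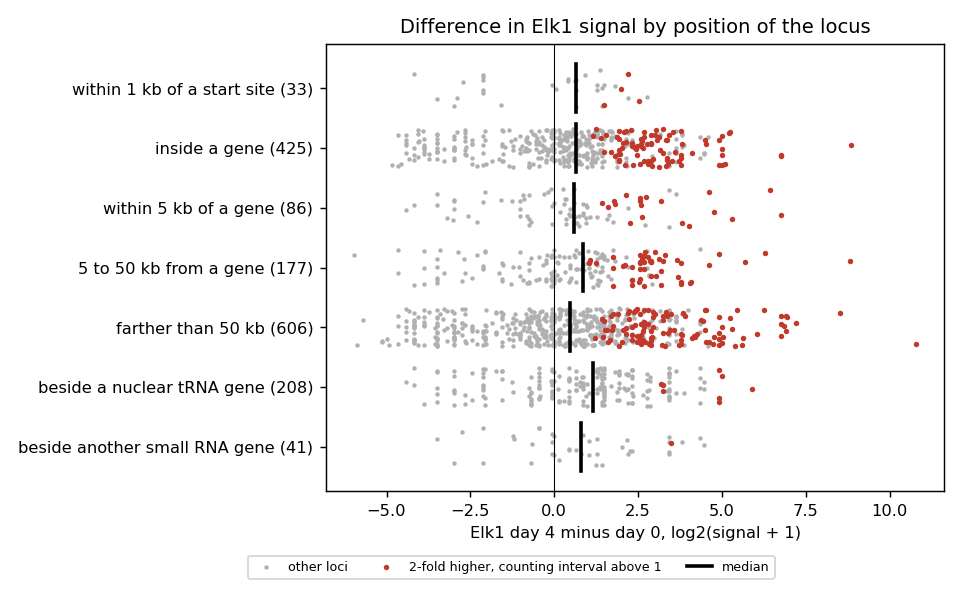
Difference in Elk1 signal, day 4 minus day 0 on log2(signal + 1), of each locus by its position; black bars are medians, red points are loci higher beyond counting, and numbers in brackets are loci. Medians lie between 0.48 and 1.16, and red points number 8 of 208 beside tRNA genes and 86 of 425 inside genes. Many of the latter were listed through day 4 alone. Among loci reached in another library the counts are 8 of 208 (3.85%) beside tRNA genes and 24 of 352 (6.82%) inside genes.

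Loci of the smallest width had the smallest median difference. It was 0.34 over the 534 loci of 220 bp, the smallest width, and 1.40 over the 144 loci above 340 and up to 500 bp. Of these 144, 43 were higher beyond counting (29.9%), beside 17.6% of all loci. Of the 133 reached in another library, 34 were (25.6%), beside 7.59% of all such loci. Over the 48 widest loci it was 1.33, with 27 higher and 2 lower.

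Every immediate-early gene with a locus had a higher signal at day 4. Of 44 genes in this list, 5 had a locus within 50 kb, and all 5 loci were at least 2-fold higher, 4 beyond counting. Over all 964 loci assigned to a gene, 44.1% were higher and 17.2% beyond counting, and the median difference was 0.73 beside 2.77 for the list. One of the 5, at Egr3, was listed through day 4 alone. Of the other 4, all were higher and 3 beyond counting, beside 36.5% and 6.36% of the assigned loci reached in another library. Beside Egr1, a zinc finger transcription factor gene (chromosome 18, 34860505 to 34861165, 42 bp from the gene), the Elk1 signal was 24 on day 0, 164.7 on day 4, 137.1 on day 8, 80.8 in the ciNSLCs and 148 in pri-NPC, a 6.86-fold difference between days 0 and 4 (interval 2.70 to 19.5). Day 0 was the lowest of the 5 stages. Beside Junb, which encodes a subunit of the AP-1 factor (chromosome 8, 84976465 to 84976845), it was 13.7, 203.5, 100.7, 97.7 and 129.4 in the same order, a 14.9-fold difference (5.00 to 59.3). That locus lies 64 bp past the 3′ end of the gene and 1903 bp from its start site.

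Near Fos, another AP-1 subunit gene (chromosome 12, 85485865 to 85486385), the signals were 37.8, 222.8, 167.6, 135.5 and 249.6, a 5.89-fold difference (2.76 to 13.4), at a place 8591 bp past the 3′ end and not at the promoter. Beside Egr3 (chromosome 14, 70074785 to 70075065, 2252 bp from the gene) they were 12.2, 118, 60.9, 18.7 and 27.9, a 9.67-fold difference (2.56 to 36.0) that the listing of this locus through day 4 alone favours. In ciNSLCs the Egr3 signal lay near its day 0 level, while those of Egr1, Junb and Fos lay above theirs. The locus of Fosb, a further AP-1 subunit, had 3.4 at day 0 and 29.1 at day 4, which is 1 unit and 3 units, and its interval held 1. Gli2 signal at the loci of Egr1, Junb, Fos and Egr3 stayed at or below 63.3 in every library.

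A few further loci were higher at day 4 and at the later stages than at day 0, with Gli2 under 100 throughout. At Map3k14, the kinase gene known as NIK (chromosome 11, 103267445 to 103267805, 44 bp from the start site), Elk1 signal was 27.5, 164.7, 81.2, 52.2 and 99.3, a 5.99-fold difference (2.45 to 16) at a locus listed through day 4 alone. Inside Slc30a4, a zinc transporter gene on chromosome 2 (122681225 to 122681585), it was 5.7, 76.4, 106.9, 78.4 and 174.8, a 13.4-fold difference (2.25 to 109). A second locus in the same gene, at 122681805, had 22.9 at day 0 and was listed at 0 at day 4, which its interval did not set apart. A locus on chromosome 12 (115372125 to 115372505), 675209 bp from Zfp386, had 96.2, 271.3, 162.5, 97.7 and 67.3, so pri-NPC lay under day 0. It counted 28 units at day 0 and 28 at day 4, so that difference rests on the deposited scale.

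**Figure D4:**
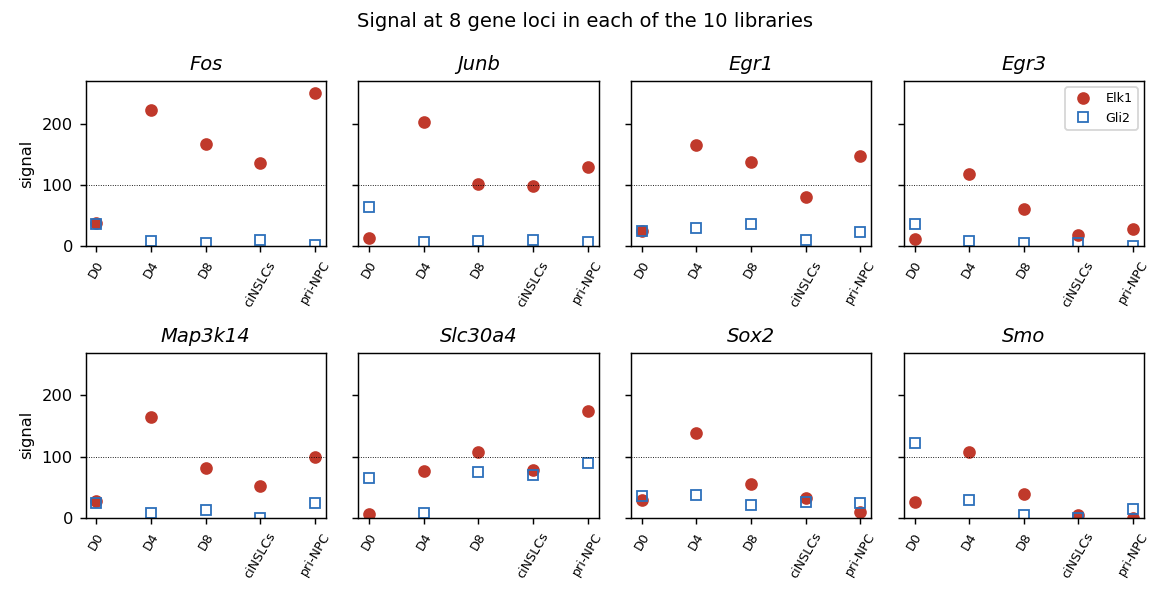
Signal in each of the 10 libraries (Elk1 filled circles, Gli2 open squares) at 8 gene loci higher at day 4 beyond counting; the dotted line marks 100. Elk1 at day 0 is at 37.8 or lower at all 8, Elk1 at day 4 is between 76.4 and 222.8, and Elk1 at day 8 is at 55.9 for Sox2 and 38.2 for Smo but at 167.6 for Fos and 137.1 for Egr1.

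Neural and fibroblast genes gave no common direction. In the neural progenitor list, 5 of 62 genes had a locus, 1 was higher and 3 lower, and the median difference was -1.22. The higher one was Sox2, a transcription factor gene of neural stem cells, where Elk1 signal over the start site was 29.4, 139.1, 55.9, 32.8 and 9.3 from day 0 to pri-NPC, a 4.73-fold difference (1.77 to 11.5). At Nes, the nestin gene, it was 13.7 at day 0 and 1.7 at day 4, at Pax6 24 and 9.7, and at Slc1a3 10.3 and 0, and all 3 intervals held 1. In the neuronal list 11 loci beside 9 of 43 genes had 3 higher and 3 lower, and 2 higher beyond counting (18.2%), a share near the 17.2% of all assigned loci. They are the Chl1 locus and a locus inside Cntnap2, an axonal adhesion gene, with 27.5 on day 0, 108.3 on day 4 and 0 on day 8. The Cntnap2 and Sox2 loci were listed through day 4 alone, and of the 10 neuronal loci reached in another library 1 was higher beyond counting. In the fibroblast list 4 loci beside 4 of 50 genes had none higher and 1 lower.

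Among the pathways that the M9 compounds act on, single loci were higher beyond counting. Inside Smo, the Hedgehog receptor component (chromosome 6, 29748365 to 29748585), Elk1 signal was 26, 108.3, 38.2, 4.6 and 0, a 4.17-fold difference (1.42 to 11.1), while Gli2 there was 123 at day 0 and 29.6 at day 4. Each antibody reached 100 at Smo in 1 library alone, day 4 for Elk1 and day 0 for Gli2. Smo was the 1 gene of 23 in the Hedgehog list with a locus. Inside Tcf7l1, a Wnt pathway transcription factor gene (chromosome 6, 72658945 to 72659305), it was 13.7, 127.7, 4.3, 0 and 38.3, a 9.32-fold difference (2.83 to 38.6). The Tcf7l1 locus was listed through day 4 alone, which favours a gain. The Wnt list had 2 loci, and the other one, in Lgr4, had 13.7 and 9.7, so none reached in another library was higher. The TGF-beta and BMP list had 2 loci and none beyond counting, the ERK feedback list 2 with none past 2-fold, and the actin and SRF-MRTF list 2 with 1 higher and none beyond counting. The FGF list of 24 genes and the retinoic acid list of 31 had no locus.

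In other lists, P4ha2, which encodes a collagen prolyl hydroxylase subunit, had 2 loci past its 3′ end with 34.4 and 35.1 at day 0 and 117.5 and 86.1 at day 4, the first beyond counting. The nuclear-encoded mitochondrial list had 3 loci with a median of -2.87 and none beyond counting. The RNA processing list had 5, with 2 higher and none beyond counting, and the cell cycle list 2, with 1 higher and 1 lower. The translation, pluripotency and epithelial adhesion lists had 1 locus each, in Eef2, beside Prdm14 and in Esrp1, and none was beyond counting in either direction. The chromatin and heat shock lists had no locus. The histone list had 12 loci beside 7 genes, 6 of them higher and 1 lower, none beyond counting, at median signals of 6.1 and 9.7.

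Large gene families held many weak loci. Of 50 loci beside 46 olfactory and vomeronasal receptor genes, 28 were higher and 8 lower, and 9 were higher beyond counting (18%), a share near the 17.6% of all loci. Of the 44 listed elsewhere, 3 were higher beyond counting. Examples are Olfr1346, listed at 0 at day 0 and at 106.6 at day 4, and Olfr479, with 6.9 and 126, both listed through day 4 alone. Of 39 loci beside 10 Zfp zinc finger genes, 19 were higher and 8 lower, 5 higher and 1 lower beyond counting, and many of these loci share the same gene, such as Zfp184 in a stretch of tRNA genes.

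Several gene loci went from a day 0 signal of 0 or close to it to just over 100 at day 4. Loci inside Hace1, an E3 ubiquitin ligase gene, and inside Ccdc186 were listed at 0 at day 0 and at 108.3 at day 4. A locus 346 bp from Ubfd1 had 0.4 and 119.7, one inside Ralgps1, a Ral exchange factor gene, 1.9 and 108.3, and one inside Ptpra, a receptor tyrosine phosphatase gene, 1.9 and 106.6. These 5 loci were listed through day 4 alone, which favours a gain and keeps their signals in the other libraries under 100. Their signals at day 8 were between 0 and 20.3. Of those reached in other libraries, the locus in Cdk8, a kinase gene of the Mediator complex, had 2.7 on day 0, 125.5 on day 4 and 40.9 on day 8. The locus in Aida had a high signal throughout the first 2 stages, 327.9 and 738.7, but this is 95 units at day 0 and 76 at day 4.

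Few losses were called beyond counting. Past 2-fold lower at day 4 were 351 of the 1577 loci (22.3%), beside 681 higher (43.2%). The interval calls falls from a low day 0 signal less readily than rises, so the 6 called do not measure the amount of loss. These 6 loci lower beyond counting lay at different kinds of places. On the mitochondrial chromosome (9265 to 10005, over ND3) the signal was 209.6 at day 0 and 0 in the other 4 Elk1 libraries, and Gli2 was 90.7 at day 0 and 0 in its other 4. A locus inside Sos2, a Ras exchange factor gene (chromosome 12, 69654025), had 100.4 and 5.2, and one beside Mroh2a on chromosome 1 had 92.8 and 14.8 but 111.9 at day 8. A locus 5895 bp from Zfp981 had 61.8 and 0, one on chromosome 16 at 3259345 had 51.5 and 0, and one on chromosome 11 at 12859465 had 58.4 and 0. The last 3 had between 15.4 and 30.6 at day 8. Gli2 was listed at 0 at day 4 at the mitochondrial locus and at these 3 as well.

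About as many of the loci that Elk1 reached later were higher at day 4 as were not. Past 2-fold above day 0 were 29 of the 54 loci at which Elk1 reached 100 on day 8 or in the ciNSLCs, 28 of them beyond counting, and 3 were lower, 1 beyond counting. These are 53.7% and 51.9% of the 54, beside 36.1% and 7.59% of the 1384 loci reached in another library. The 54 loci are not separate cases. Most of those not higher are neighbours in the Sfi1 stretch, and many of the higher ones lie in the chromosome 9 and chromosome 2 stretches. The split therefore depends on how these stretches were divided into loci. Of these 54, 43 had also reached 100 with Gli2. Among the 11 that had not, 7 were higher, 6 beyond counting, which were Fos, Egr1, Junb, Slc30a4, the chromosome 12 locus and 1 in C130026I21Rik. The median Elk1 signal of these 11 loci was 37 on day 0, 97 on day 4, 121.4 on day 8 and 78.4 in the ciNSLCs.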

How the data were processed

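The 10 ChIP-seq libraries, 1 per antibody and stage, gave the authors' deposited signal at 1577 loci, with no replicate, read total or input. Per the labels' protocols, formaldehyde-fixed, sheared chromatin was immunoprecipitated with the EZ-ChIP kit and amplified in 13 PCR cycles. The submitters' processing notes name CASAVA 1.8.4, FastQC, Bowtie2, SAMtools and mm10, without role or order. For the peak caller, the background and the scaling, the step taken is not given in the sources used here. Total depth is unknown, so a different scale between libraries would move every difference. The step between low signals (under 60) was taken as 1 counted unit. The grid was whole numbers of units, either as such or less 1 fitted background step. On it, to within 0.06 of signal, lay 89.8% of the low signals of the day 0 library and 83.3% of those of the day 4 library. For the intervals the signal was divided by the unit and rounded, without the background step. Intervals are exact conditional binomial 95% intervals of the ratio. A locus took the closest protein-coding gene of GRCm38.p6 up to 50 kb away. A crowded stretch holds at least 5 loci within 100 kb; a reached locus has a signal of at least 100. The named genes were those of the gene lists with a locus reaching 100 with Elk1, the 12 largest increases and 8 largest decreases among assigned loci, the same numbers among loci reached in another library, and the 10 highest day 4 signals within 1 kb of a gene. Loci described outside this rule were chosen after their values were seen. The members and gene lists were chosen with earlier results of these data known, and the histone symbols were updated after the loci were seen. Tables were handled with pandas 2.3.3 in Python 3.11.15, intervals came from scipy 1.17.1 with numpy 2.4.6, figures from matplotlib 3.10.9, and the counting was tested on simulated data. The series text writes ciNSLC beside day 0, whereas the sample labels keep them apart, and the labels were followed.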

Additional observations from a re-analysis of the deposited data

Results flagged for a closer look

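At Smo the Elk1 difference between day 4 and day 0 was 2.02 on the log2 scale, whereas the Gli2 difference was -2.02 (signal 123 on day 0 and 29.6 on day 4). It stands out because the antibodies differed in opposite directions, and this difference between them was not tested. Elk1 reached 100 there at day 4 alone and Gli2 at day 0 alone, so the listing favours opposite directions. Over the 208 loci beside nuclear tRNA genes the median Elk1 difference was 1.16 and the median Gli2 difference -2.05, again in opposite directions and not tested. The Elk1 medians there are 2 units and 1 unit.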

How the results depend on the processing

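Scaling both libraries to the same median over all loci removes a log2 ratio of 0.52 between their medians, and shifts low signals by less because of the pseudocount. The median difference over all loci was then 0.18, and that over the loci reached in another library turned to -0.028. Scaling over the loci reached in another library, or over those reached with Gli2 only, removes 0.15 and gave the latter a median of 0.26. After scaling over all loci the medians were 0.15 inside genes, 0.078 within 5 kb, 0.36 at 5 to 50 kb, 0.00 farther away and 2.32 for the immediate-early list. With only loci reached in another library they were 0.31 inside genes, 0.22 at 5 to 50 kb and 0.16 farther away. Single loci that turned under that scaling were those in Sfi1 at 3130645 (-0.11) and 3186345 (-0.12), in Fap (-0.028) and in Nlgn1 (-0.47). Over all loci a pseudocount of 5 gave a median of 0.46. The counting interval left 278 higher and 6 lower. Loci above 0 in both libraries, chosen after seeing the data, left 148 lower with a median of 0.84, and loci of at least 3 units in both, also chosen then, left 308 and 3 with 1.59. Over the loci reached in another library, a 3-fold limit left 329 higher, the interval 105 and 5, loci above 0 in both 147 lower with a median of 0.48, and at least 3 units 161 and 2 with 1.18. A unit is worth 9.69 at day 4 and 3.44 at day 0. The filter of 3 units thus asks for a higher signal at day 4 and favours gains in both sets. A listing limit of 150 gave 168 higher and 45 lower with 1.28. Listing through Elk1 at day 8, in ciNSLCs or in pri-NPC gave 272 and 196, and listing through Gli2 269 and 154 with 0.51. Of the 105 loci higher beyond counting, 50 remained without loci of both antibodies and 44 also without the crowded stretches that hold no tRNA genes, the last chosen after seeing the data. No paired analysis was possible because each antibody and stage has 1 library, and for the same reason no library could be left out. Depth limits the weak loci, whose medians are 3 units and 2 units.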
